A study of Mus musculus with 118 samples.

Results

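SOM+ interneurons of layer 4 (L4) were compared between the primary somatosensory cortex (S1) and the primary visual cortex (V1), gene by gene. The compared cells were 76 single cells, 34 from S1 L4 and 42 from V1 L4, and made up 64.4% of the series. All cells were from SOM-Cre/Ai9 mice, in which Cre under the control of the somatostatin gene switches on the red marker tdTomato, so a cell that expressed somatostatin only earlier in life is marked as well. The cells were recorded in brain slices by Patch-seq, in which the cell content is drawn into the recording pipette and its RNA is turned into cDNA. The study describes its animals as adult males and females, no treatment is named, and the labels give no animal, age or sex for a cell. The whole series has 44 cells labelled V1 L4, 39 labelled S1 L4, 19 labelled V1 L5 and 16 labelled S1 L5. Kept cells had at least 1500 genes with a read, no more *Slc17a7* counts than *Gad1* plus *Gad2* counts, and at least 1 *Sst* read. In V1, 2 cells were left out for too few genes, the richer with 1153 genes beside 3451 in the poorest kept cell. In S1, 1 cell was left out for too few genes, with 418 beside 2792 in the poorest kept cell, and 4 were left out for having no *Sst* read, beside at least 22 *Sst* counts in every kept S1 cell. In total counts on genes, the kept cells had 320392 to 2978619 in V1 and 499521 to 3295232 in S1, and the mean number of genes with a read was 6287 in V1 and 6290 in S1.

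SOM+ interneurons release GABA and somatostatin and act mainly on the dendrites of other neurons. In many layers they are Martinotti cells, whose axons climb to layer 1. In L4 of S1, many SOM+ cells are instead non-Martinotti cells, with axons that stay within L4 and contact fast-spiking interneurons. *Calb2*, which encodes the calcium-binding protein calretinin, and *Hpse*, which encodes heparanase, an enzyme that cuts heparan sulfate chains, are names of reference types of SOM+ cells.

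Each area and layer is 1 sample here, because the labels tie no cell to an animal. No test was run and no p-value is given. A level is log2(CPM + 1), where CPM is the count of a gene scaled to the same total count in each cell, 1000000, and a difference is the S1 mean minus the V1 mean over kept cells. The date that opens each label was numbered, which gave days 1 to 9, and the difference was also taken within days 2, 3, 5, 7 and 8, which held at least 2 kept cells of each area. Their SD over the 5 days serves as the spread. The labels do not say that dates are separate animals, and the study names fewer mice for these cells than there are dates, so some dates share an animal. Day 1 held only V1 cells, day 9 only S1 cells, and the 5 paired days held 2 to 12 cells of an area. A gene was past the limit when its difference was at least 2, a factor of 4 on this scale, with the same sign in all 5 days. The differences weigh the share of cells with a read as well as the level in those cells, since a cell without a read enters at 0.

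The cells had the defining genes of SOM+ interneurons. *Sst* was chosen on, and its level was 6.65 in the lowest V1 cell, with a median of 10.25 and a highest value of 12.20. In S1 the lowest cell was at 5.45, the median at 9.98 and the highest at 11.22. The areas overlapped almost fully, and the difference of −0.50 was smaller than the spread (SD over days 0.86), with V1 higher in 4 of 5 days. *Gad1*, which encodes a GABA-synthesizing enzyme, had reads in 42 of 42 V1 cells and 34 of 34 S1 cells. *Slc17a7*, the glutamate transporter of excitatory neurons, reached at most 2.71% of *Gad1* plus *Gad2* counts in a V1 cell and 2.4% in an S1 cell. The balance of these 3 genes was also part of the choice of cells, so a low share was partly chosen on. That criterion left out 0 L4 cells in V1 and 0 in S1. Of the 11 genes in the list of shared SOM interneuron genes, none was past the limit, beside 0.283% of all genes toward S1 and 0.272% toward V1. Their median difference was 0.38 beside 0.01 for all genes tested. In this list *Elfn1*, whose product instructs facilitating synapses onto SOM+ cells, was at 6.03 in V1 and 7.51 in S1, a difference of 1.48 (SD over days 1.44), with S1 higher in 5 of 5 days.

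*Calb2* was carried by more V1 than S1 cells. It had a read in 20 of 42 V1 cells, 47.6% (exact 95% Clopper-Pearson interval 32 to 63.6, counting error only), and in 5 of 34 S1 cells, 14.7% (4.95 to 31.1). The lowest cell and the median cell were at 0 in both areas, and the highest was at 9.90 in V1 and 8.54 in S1. The difference was −2.44 (SD over days 0.83), with V1 higher in 5 of 5 days, from −1.71 on day 7 to −3.87 on day 5. Thinned to 250000 reads a cell, 19 V1 and 5 S1 cells had a *Calb2* read.

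*Hpse* had a read in 22 of 42 V1 cells, 52.4% (36.4 to 68.0), and in 23 of 34 S1 cells, 67.6% (49.5 to 82.6). The median cell was at 1.26 in V1 and at 8.11 in S1, while the highest cells stood at 10.25 in both. The difference of 2.17 was smaller than its spread (SD over days 3.58). On 3 of 5 days S1 stood above V1, and the sign turned on days 2 and 8, where the differences were −3.49 and −3.21. On these days 0 of 4 and 1 of 2 S1 cells had a read, so few cells set the sign. The intervals of the shares, which take cells as independent, overlap for *Hpse*. For *Calb2* the gap is narrow, from 31.1 in S1 to 32 in V1, and neither gene was tested.

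The read of 1 of these genes seldom came with a read of the other. In V1, 5 cells had both, 15 had *Calb2* alone, 17 had *Hpse* alone and 5 had neither. In S1, 1 cell had both, 4 had *Calb2* alone, 22 had *Hpse* alone and 7 had neither. The V1 cells were thus divided nearly evenly between the 2 reads, and most S1 cells had *Hpse* alone.

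**Figure D1:**
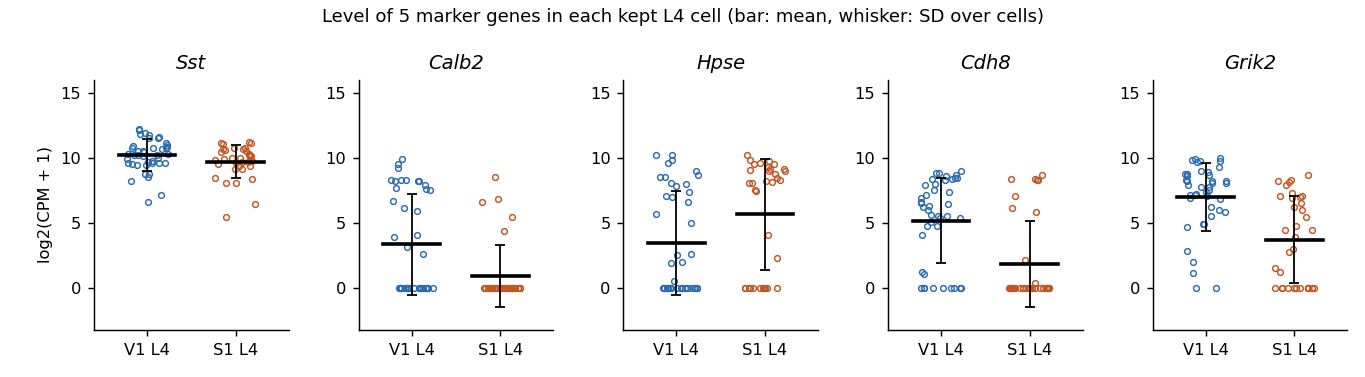
Level in log2(CPM + 1) of *Sst*, *Calb2*, *Hpse*, *Cdh8* and *Grik2* in each of the 42 V1 L4 and 34 S1 L4 cells (open circles), with the mean over cells (thick bar) and the SD over cells (whisker, which reaches below 0 although no level does). *Sst* overlaps between areas, while many S1 cells sit at 0 for *Calb2*, *Cdh8* and *Grik2*.

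Among the genes higher in V1 were *Nell1*, *Cdh8* and *Grik2*, each with many S1 cells at 0. *Nell1*, which encodes a secreted protein with EGF-like repeats, had a read in 29 of 42 V1 cells and in 5 of 34 S1 cells, with intervals of 52.9 to 82.4% and 4.95 to 31.1%. The median cell was at 7.12 in V1 and at 0 in S1, while the highest cells were at 11.06 and 8.08. The means of 5.37 and 0.84 differ by −4.53 (SD over days 1.54), with V1 higher in 5 of 5 days. Summed over all cells of an area, *Nell1* had 237 CPM in V1 and 11.7 CPM in S1, 20.3 times as much in V1.

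*Cdh8*, a type II cadherin that joins cells of like cadherin make-up, had a read in 33 of 42 V1 cells (interval 63.2 to 89.7%) and in 10 of 34 S1 cells (15.1 to 47.5%). The median cell was at 6.11 in V1 and at 0 in S1, and the highest at 9.0 and 8.66. The difference of means was −3.30 (SD over days 1.70). It was smallest on day 7, at −1.63, and V1 was higher in 5 of 5 days. The S1 cells that had a *Cdh8* read stood as high as those of V1: among cells with a read, the S1 mean was 0.22 below the V1 mean.

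*Grik2*, which encodes the GluK2 subunit of kainate receptors, had a read in 40 of 42 V1 cells and in 22 of 34 S1 cells. The median was 7.74 in V1 and 4.20 in S1. The means were 7.02 and 3.74, a difference of −3.28 (SD over days 1.10), between −2.95 on day 7 and −5.76 on day 3. Unlike for *Cdh8*, the cells with a read also differed in level, by −1.6. The other kainate subunits did not share this difference, with −0.40 for *Grik3* (SD over days 2.61), 0.19 for *Grik1* (4.01) and 0.04 for *Grik5* (3.28).

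Further genes named by rank had the same direction. *Fscn1*, which encodes fascin, a protein that bundles actin filaments, was at 6.95 in V1 and 3.33 in S1, a difference of −3.62 (SD over days 1.77), but of only −0.07 on day 8. *Scn3b*, an auxiliary subunit of sodium channels, differed by −3.25 (SD 1.52). *Fzd3*, a Wnt receptor that also steers axons, differed by −3.04 (SD 0.90). *Sfrp2*, a secreted inhibitor of Wnt signals, differed by −2.85 (SD 1.40). *Cadm1*, an immunoglobulin-type adhesion molecule of synapses, differed by −2.94 (SD 1.29), and *Grm5*, the metabotropic glutamate receptor mGluR5, by −2.68 (SD 0.96). *Atp2b4*, a calcium pump of the plasma membrane, was at 4.24 in V1 and 1.31 in S1, and its few S1 cells with a read stood no lower than those of V1 (0.24 higher). *Camkv*, a kinase-like protein, *Tmeff2*, a membrane protein with an EGF-like domain, and *Atp1b2*, the beta2 subunit of the sodium pump, differed by −2.90, −2.72 and −2.69.

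Among genes higher in S1, a pair of interferon-induced genes, an integrin ligand and several channel and signalling genes ranked high. *Ifit2* had a read in 23 of 42 V1 cells and in 30 of 34 S1 cells, with medians of 1.24 and 8.38. Its means were 3.31 and 6.88, a difference of 3.57 (SD over days 2.53), with S1 higher in 5 of 5 days, although by only 0.34 on day 2 and 0.79 on day 3. *Ifit1* had a read in 9 V1 and 17 S1 cells, with means of 1.27 and 3.73 and a difference of 2.46 (SD over days 1.71). Of the S1 cells, 16 had reads of both genes and 3 of neither, beside 8 and 18 of the V1 cells. Both genes encode proteins with tetratricopeptide repeats that interferon induces and that act against viral RNA.

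*Ifit1* and *Ifit2* are neighbours on chromosome 19 (GRCm38, chr19:34640871-34650009 and chr19:34550694-34576419, both on the plus strand), and *Ifit3* lies between them. *Ifit3*, chosen here after its values were seen, did not share the difference: it had a read in 13 V1 and 11 S1 cells, and its difference of 0.51 (SD over days 2.32) was positive in 3 of 5 days. *Ifit3* has a near-identical neighbouring copy, so its reads may have been split between them. The 250 bases before the start of *Ifit1* and of *Ifit3* are shown because both hold the motif of interferon regulatory factors, which switch on interferon-induced genes, while only *Ifit1* was past the limit. Capitals mark matches to GAAANNGAA, searched on both strands (TTCNNTTTC on the other), where N is any base. The sequences are from RefSeq promoters of GRCm38.p6, 5′ to 3′, plus strand, at chr19:34640639-34640888 and chr19:34583279-34583528.
*Ifit1*: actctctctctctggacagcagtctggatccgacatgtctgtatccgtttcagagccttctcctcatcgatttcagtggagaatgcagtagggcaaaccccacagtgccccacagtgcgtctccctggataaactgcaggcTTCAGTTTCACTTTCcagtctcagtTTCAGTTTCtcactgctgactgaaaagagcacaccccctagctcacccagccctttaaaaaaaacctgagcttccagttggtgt
*Ifit3*: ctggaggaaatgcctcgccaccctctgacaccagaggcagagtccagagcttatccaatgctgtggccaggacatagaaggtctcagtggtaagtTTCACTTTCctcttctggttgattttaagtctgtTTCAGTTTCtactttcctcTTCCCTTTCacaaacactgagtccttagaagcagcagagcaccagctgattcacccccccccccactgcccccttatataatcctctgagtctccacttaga
Each window has 3 matches, of which 2 overlap in *Ifit1*, and neither window listed for *Ifit2* has one. Of 32851 promoters of the same length, 7.13% hold the motif. A match describes these letters and shows no binding.

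*Npnt* encodes nephronectin, a matrix protein that binds integrin. It had a read in 16 of 42 V1 cells (interval 23.6 to 54.4%) and in 26 of 34 S1 cells (58.8 to 89.3%), with medians of 0 and 7.14. The difference was 3.45 (SD over days 2.82), from 1.10 on day 8 to 8.71 on day 5. *Crtac1*, which encodes a secreted matrix protein, had a read in 27 V1 and 32 S1 cells, and its difference of 3.41 (SD 2.19) was at least 2.62 in each of the 5 days. *Sulf2*, an enzyme that removes sulfate from extracellular heparan sulfate, differed by 2.50 (SD 2.76), with only 0.10 on day 2.

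*Trpm2*, a calcium-permeable channel opened by ADP-ribose, was at 2.17 in V1 and 4.87 in S1, a difference of 2.70 (SD over days 2.0) that was under 0.5 on days 3 and 5. *Pde9a*, which breaks down cGMP, had a read in 8 V1 and 21 S1 cells and differed by 2.52 (SD 1.49). *Myrip*, a linker between vesicles and myosin, differed by 2.56 (SD 1.89). *Clstn2*, a synaptic calsyntenin, *Lgi3*, a secreted protein of the LGI family, and *Fam210b*, a mitochondrial protein, differed by 2.4, 2.39 and 2.49. *Necab3*, a calcium-binding protein, was the only member of its list past the limit toward S1, at 2.18 (SD 1.44).

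**Figure D2:**
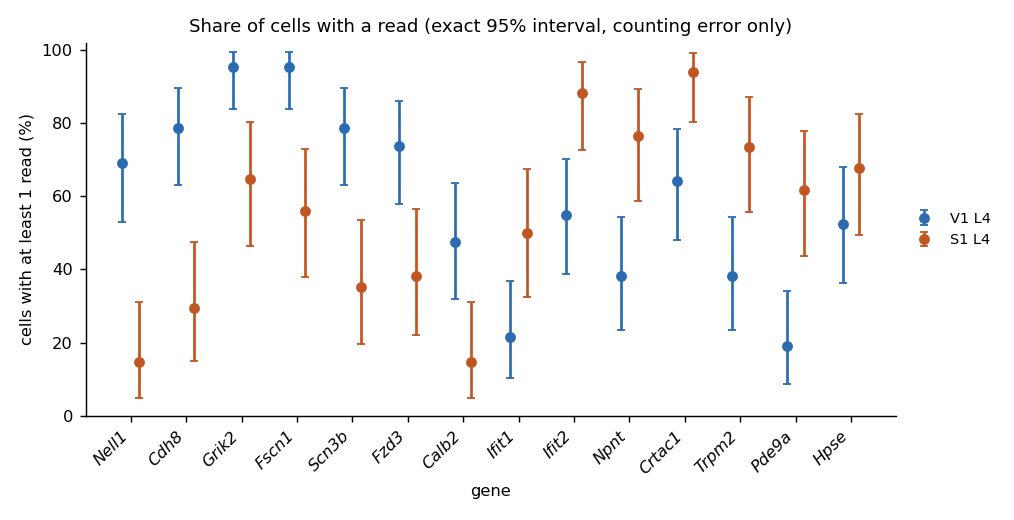
Share of cells with at least 1 read of 14 genes in V1 L4 (blue, 42 cells) and S1 L4 (orange, 34 cells), in percent, with exact 95% intervals that cover counting error only. *Nell1*, *Cdh8* and *Scn3b* stand higher in V1 and *Npnt*, *Ifit2* and *Pde9a* higher in S1 without overlap of the intervals, while those of *Hpse* overlap.

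Over all genes, few were past the limit. Of 9201 genes with at least 32 counts in at least 10 of the L4 cells of both areas, 26 (0.283%) were past it toward S1 and 25 (0.272%) toward V1. Without the demand on days, 51 (0.554%) were higher by at least 2 in S1 and 46 (0.5%) in V1. Of these, 26 of 51 and 25 of 46 had 1 sign in all 5 days, beside 2.73% of all genes with S1 higher and 3.89% with V1 higher in every day; the mean and the days come from the same cells. The difference was larger than its SD over days in 24 of the 26 genes toward S1 and 21 of the 25 toward V1, and it was at least 1 in each day in 14 and 17. Leaving out 1 day raised each count, fewer days then having to share a sign. Toward S1 it was 53 without day 8 and 29 to 36 without another day. Toward V1 it was 54, 45 or 48 without days 2, 3 or 7, and 36 without day 5 or 8. The genes nearest to the limit were *Ust* (2.01) and *Trim3* (−2.07) inside it and *Asns* (1.92) and *Eya1* (−1.997) outside it.

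**Figure D3:**
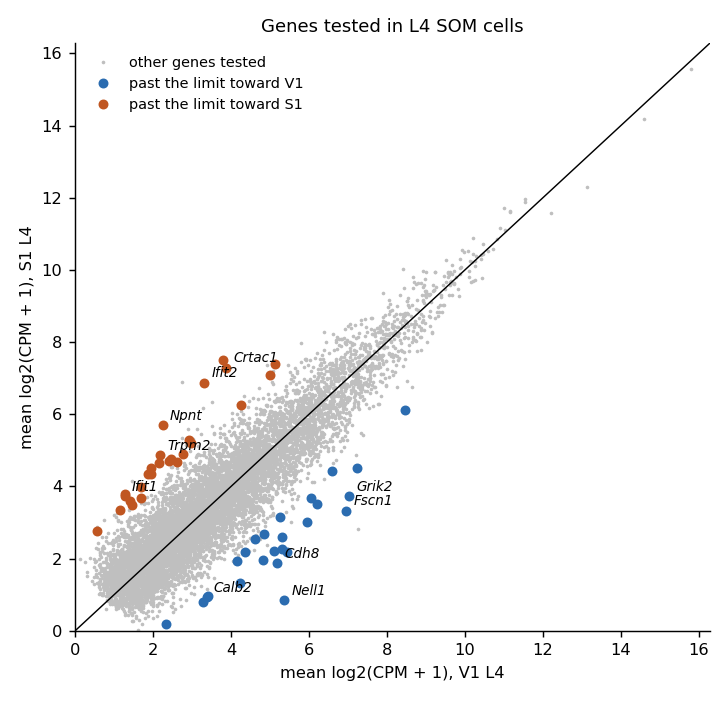
Mean log2(CPM + 1) of 9201 genes in V1 L4 (horizontal axis) and S1 L4 (vertical axis), 1 point a gene, with the 25 genes past the limit toward V1 in blue and the 26 toward S1 in orange. Most genes lie near the line of equal level, and *Nell1* lies farthest below it among the labelled genes.

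Some large differences did not keep 1 sign over the days. *Calb1*, which encodes the calcium-binding protein calbindin, had a read in 32 of 42 V1 cells and 14 of 34 S1 cells, with medians of 9.23 and 0. Its difference of −4.44 had an SD over days of 4.56, and on day 2 S1 was higher, by 1.66. *Gabrd*, which encodes the delta subunit of extrasynaptic GABA-A receptors, had a read in 18 V1 and 31 S1 cells. Its difference was 4.17 (SD over days 2.83), with a turn to −0.81 on day 8, where S1 had 2 cells.

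**Figure D4:**
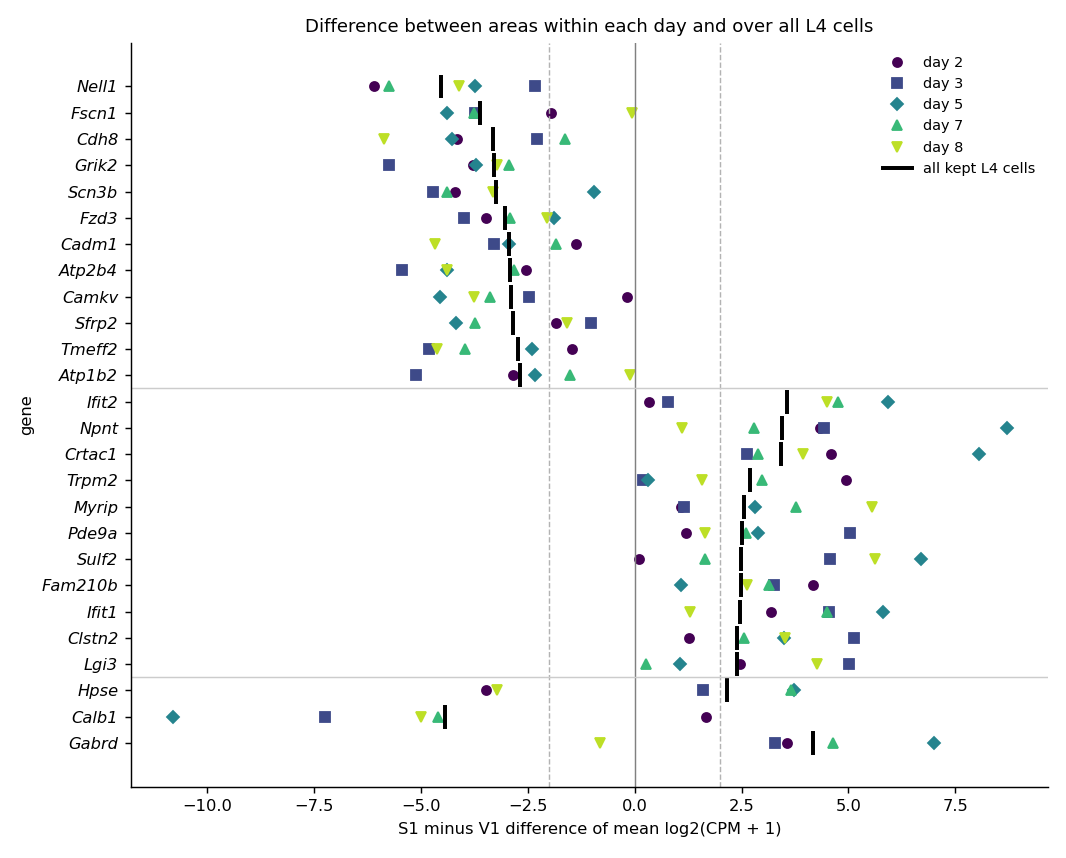
S1 minus V1 difference of mean log2(CPM + 1) for 26 genes within each of 5 days (coloured symbols) and over all kept L4 cells (black bar), with dashed lines at −2 and 2. Genes in the upper block were higher in V1 and those in the middle block higher in S1 on every day, while *Hpse*, *Calb1* and *Gabrd* at the bottom change sign.

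Genes read in nearly all cells differed by less, and this choice leaves out most differences in the share of cells with a read. Among genes with a read in at least 90% of cells of both areas, the largest differences of 1 sign toward V1 were −1.33 for *Sptbn1*, a spectrin of the membrane skeleton (SD over days 1.19), −1.27 for *Htt*, huntingtin (0.72), −1.23 for *Hp1bp3*, a chromatin protein (1.14), −1.18 for *A330076H08Rik* (1.56) and −1.15 for *Unc13a*, which primes synaptic vesicles (0.88). Toward S1 they were 1.6 for *Gpm6b*, a membrane proteolipid (1.01), 1.29 for *Uqcrc1*, a subunit of respiratory complex III (1.32), 1.18 for *Psd*, an exchange factor for Arf6 (0.35), 1.08 for *Ncam1*, a neural adhesion molecule (1.22) and 1.06 for *Clstn3*, another calsyntenin (0.84). *Psd* had a small spread, with differences from 1.03 to 1.83 over the days. None of the 777 genes read so widely was past the limit. Of all genes, 0.283% were past it toward S1 and 0.272% toward V1.

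Gene lists and their members were chosen with earlier results of these data known, so their counts are no independent support. Members of the axon guidance list were mostly lower in S1. Of 41 genes, 20 passed the filter on low counts, and 16 of these were lower in S1, beside 49.2% of all genes, with a median difference of −0.79 beside 0.01 for all genes. *Nell1* alone was past the limit, beside 0.272% of all genes toward V1. V1 was higher in each day for 6 of the 20, beside 3.89% of all genes. They were *Nell1*, *Plxna3* (−1.39, SD over days 0.62), *Robo1* (−0.89, SD 0.79), *Unc5c* (−0.79, SD 1.83), *Sema6a* (−0.59, SD 0.50) and *Plxna4* (−0.56, SD 1.19). No member was higher in S1 in each day, beside 2.73% of all genes. *Plxna3* and *Plxna4* encode plexins, the receptors of semaphorins, *Robo1* is a receptor of Slit proteins and *Unc5c* of netrin. The largest difference the other way was 0.78 for *Robo2* (SD over days 2.27), positive in 3 of 5 days.

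Of 10 cadherins, 8 were lower in S1, beside 49.2% of all genes, with a median of −0.48. *Cdh10*, chosen after its values were seen, was lower in S1 on every day by −1.85 over all cells (SD over days 0.50). *Cdh2*, which encodes N-cadherin, was higher in S1 by 1.85 (SD 2.22), in 4 of 5 days. Of 20 synaptic adhesion genes, 15 were lower in S1, beside 49.2% of all genes, with a median of −0.36. None of the 20 was past the limit, beside 0.283% of all genes toward S1 and 0.272% toward V1. *Cntnap2*, a neurexin-like protein that holds potassium channels near the axon's nodes, was the only one with 1 sign in every day, at 5.90 in V1 and 7.54 in S1, a difference of 1.64 (SD 2.19).

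Ion channel genes moved both ways. Of 26 voltage-gated potassium channel genes, 10 were higher in S1 and 16 lower, beside 50.8% and 49.2% of all genes, with a median of −0.25. None was past the limit, beside 0.283% of all genes toward S1 and 0.272% toward V1. *Kcna2* (Kv1.2) was at 3.71 in V1 and 5.48 in S1, a difference of 1.77 (SD over days 1.31), positive in 5 of 5 days. *Kcnip1*, a subunit that modulates Kv4 channels, differed by 1.31 (SD 1.35) and *Kcns3*, a silent subunit that modifies Kv2 channels, by 1.52 (SD 2.64), both positive on each day. *Kcnd2* (Kv4.2) was at 4.45 in V1 and 3.95 in S1, a difference of −0.50 (SD 1.12), negative on each day. *Kcna1* (Kv1.1) had the largest difference over all cells, 2.18 (SD 1.63), positive in 4 of 5 days. The mean of its differences within the 5 days was only 0.79, and day 8 stood at −1.75. *Kcnc1* (Kv3.1), a channel of fast-spiking cells, differed by 0.59 (SD 1.32). Of 17 sodium and high-voltage calcium channel genes, only *Scn3b* was past the limit, beside 0.272% of all genes toward V1. *Cacnb3*, a beta subunit of calcium channels, was higher in S1 on each day, by 1.65 over all cells (SD 1.41). Its difference was only 0.30 on day 2 and 0.29 on day 8. *Cacna1g*, a T-type calcium channel, had a read in 39 of 42 V1 cells and 21 of 34 S1 cells, and its difference of −2.04 had an SD of 2.88.

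Among 14 ionotropic glutamate receptor genes, only *Grik2* was past the limit, beside 0.272% of all genes toward V1, and the median was −0.15. *Gria1*, an AMPA receptor subunit, was lower in S1 on each day, by −0.66 over all cells (SD over days 0.45). So was *Grin3a*, an NMDA receptor subunit typical of SOM+ cells, by −0.66 over all cells (SD 1.72).

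Of the 31 genes that name reference types of SOM+ cells, 30 were in the table and 5 passed the filter. Only *Calb2* was past the limit, beside 0.272% of all genes toward V1. *Eya1*, a transcriptional cofactor, had a read in 19 V1 and 6 S1 cells, with V1 higher on each day (SD over days 0.74). *Cbln4*, a cerebellin that organizes synapses, had a read in 28 of 42 V1 and 23 of 34 S1 cells and differed by −0.35 (SD 2.45). *Mme*, which encodes neprilysin, had a read in 9 V1 and 8 S1 cells and differed by −0.06. Below the filter, *Etv1*, a transcription factor of the ETS family, had a read in 14 V1 and 2 S1 cells and *Pdlim5*, an actin-associated adaptor, in 13 V1 and 2 S1 cells, while *Chodl*, *Rxfp1*, *Myh8* and *Fibin* had no read in any kept L4 cell. A count of 0 allows up to 3 counts.

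The V1 genes were also compared by *Calb2*, because more V1 than S1 cells had a read of it. In V1, cells with a *Calb2* read also had reads of *Cdh8* in 18 of 20 and of *Nell1* in 18 of 20, beside 15 and 11 of the 22 V1 cells without one. In S1, 5 of 5 cells with a *Calb2* read had a *Cdh8* read, beside 5 of 29 without one. The genes followed here were named by their difference over all kept L4 cells. A difference in part of those cells was favoured by that choice and is no independent support. The difference between areas was present in the cells without a *Calb2* read too, 22 from V1 and 29 from S1. In these, *Nell1* was at 3.91 in V1 and 0.32 in S1, a difference of −3.59. *Cdh8* differed by −2.61, *Grik2* by −2.57, *Scn3b* by −3.63 and *Fzd3* by −3.24, each with V1 higher in 3 of the 3 days that still held enough cells. *Fscn1* differed by −3.86, with V1 higher in 2 of them.

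Cells without a *Calb2* read gave differences toward S1 as well, of 3.71 for *Ifit2* (SD over the 3 days 3.74) and 2.73 for *Crtac1* (0.28). The differences were 2.2 for *Npnt* (1.41), 2.51 for *Pde9a* (1.32) and 1.18 for *Sulf2* (2.36). Of the 3 days, S1 was higher in 3 for *Crtac1* and *Pde9a* and in 2 for *Ifit2*, *Npnt* and *Sulf2*. *Hpse* was at 5.47 in V1 and 6.39 in S1 among these cells. Its difference of 0.92 was far smaller than its spread (SD over the 3 days 5.49), with S1 higher in 1 of the 3. In V1 cells with a *Calb2* read, *Hpse* was at 1.34. A cell without a read may still have held the transcript, and this division was made after the values were seen. Apart from *Hpse*, these genes too were named by their difference over all kept L4 cells. Whether the share of cells with a *Calb2* read carries the area differences was not tested.

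**Figure D5:**
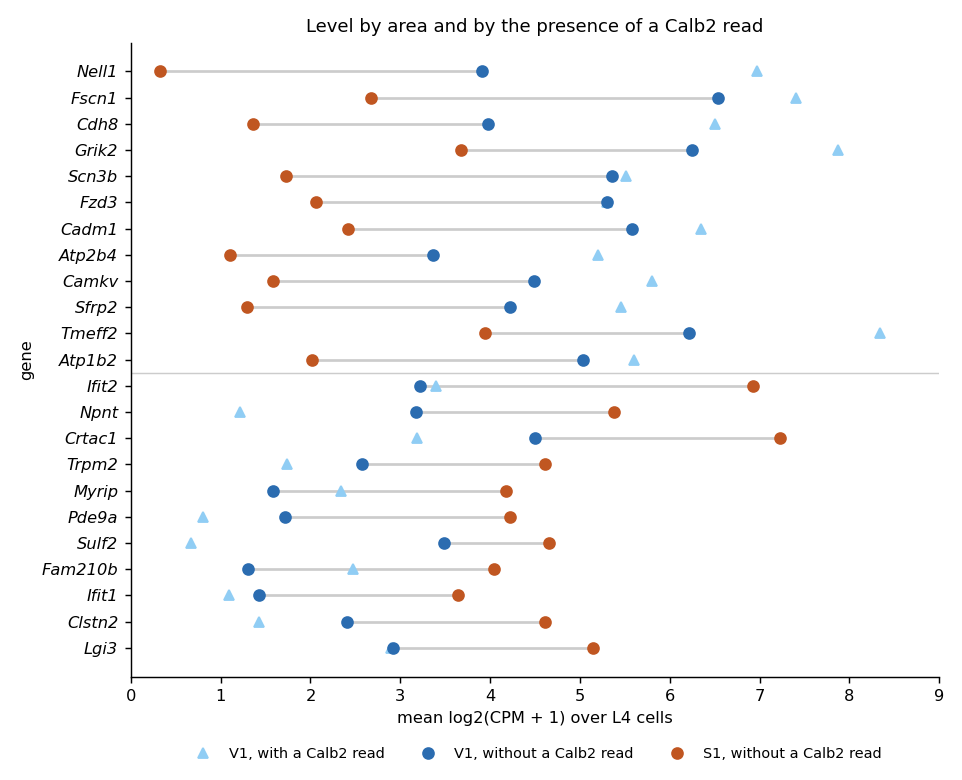
Mean log2(CPM + 1) over L4 cells of 23 genes in V1 cells with a *Calb2* read (triangles, 20 cells), V1 cells without one (blue circles, 22 cells) and S1 cells without one (orange circles, 29 cells). The blue circles lie above the orange ones for the upper 12 genes and below them for the lower 11. The genes were chosen by their difference over all kept L4 cells, so this order was favoured by the choice.

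The differences were also read in cells to which the limit was not applied, a comparison added after the data were seen. The L4 cells among them were not fully apart from the choice. The filter on low counts and the ranks that named genes used all kept L4 cells. For this, genes were chosen by the same limit on the 5 paired days alone, which gave 41 toward S1 and 38 toward V1. In the other days, with 5 V1 and 11 S1 cells, 28 of the 41 were higher in S1, beside 47.1% of all genes, and 27 of the 38 were higher in V1, beside 52.8%. Area and date cannot be told apart in these days, since days 1 and 9 held cells of 1 area and days 4 and 6 held 1 V1 cell each. *Nell1* differed by −2.61 there, *Cdh8* by −2.89, *Grik2* by −2.32, *Scn3b* by −4.70, *Npnt* by 3.99 and *Ifit2* by 3.85, while *Ifit1* turned to −1.23. *Kcna2* and *Kcns3*, also among the 41, turned to −0.83 and −0.71.

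In layer 5 (L5), with 17 V1 and 16 S1 cells, 30 of the 41 genes were higher in S1, beside 59.4% of all genes, and 25 of the 38 were higher in V1, beside 40.5%. The medians were 0.40 and −0.27 beside 0.23 for all genes, so the differences in L5 were small. *Nell1* was at 4.23 in V1 L5 and 1.71 in S1 L5, a difference of −2.52. *Cdh8* was at 3.63 and 3.27 and *Grik2* at 6.09 and 5.91, close to equal in the 2 areas. *Scn3b* differed by −0.52 and *Fzd3* by −0.09 in L5, and *Gabrd*, which ranked high in L4, was at 1.75 in V1 L5 and 6.54 in S1 L5. Whether the area difference itself differs between layers was not tested.

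Some markers of other cells were higher in S1. The oligodendrocyte list was higher in S1, with 1119 CPM summed over cells beside 271 CPM in V1, and a median of 644 CPM a cell (range 0 to 9702) beside 160 CPM (0 to 3717). *Mbp*, which encodes a myelin protein, had reads in 26 S1 and 31 V1 cells, while *Mag* and *Cldn11* were at 0 in every V1 cell and had reads in 3 and 5 S1 cells. *Mal* and *Ermn* went the other way, with 3.42 and 0.376 CPM summed over cells in V1 and 0.833 and 0.0208 CPM in S1. All 4 members past the filter were higher in S1, beside 50.8% of all genes, with none of the 4 past the limit. Of these, *Cnp* differed by only 0.01, with S1 higher in 2 of 5 days. Without the cells over 500 CPM of this list, which left 38 V1 and 16 S1 cells and 2 paired days, *Npnt* differed by 3.48, *Crtac1* by 3.94, *Ifit2* by 2.91, *Cdh8* by −4.31 and *Nell1* by −5.06, while *Sulf2*, *Fam210b* and *Lgi3* were below the limit of 2, at 1.23, 1.90 and 1.68. Without these cells 1.18% of all genes were past the limit toward S1 and 0.891% toward V1, fewer days having to share a sign. The astrocyte list summed to 827 CPM in V1 and 680 CPM in S1, and the microglia list to 391 and 340 CPM. Their median cells went the other way, at 351 CPM in V1 and 591 CPM in S1 for astrocytes and 160 and 274 CPM for microglia. The highest V1 cell had 12284 CPM of the astrocyte list. The endothelial list summed to 8.52 CPM in V1 and 11.6 CPM in S1, the excitatory neuron list to 605 and 482 CPM, and the list of VIP and Lamp5 interneuron markers to 56.0 and 57.5 CPM. *Pvalb*, which marks fast-spiking interneurons, had a read in 10 V1 and 18 S1 cells, with S1 higher in 4 of 5 days. Its list summed to 11.8 CPM in V1 and 44.7 CPM in S1. *Pvalb* alone made up 11.4 and 41.8 CPM of these sums, and *Syt2* of the same list had no read in either area. The part of these RNAs in the area differences was otherwise not tested.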

How the data were processed

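The authors aligned reads to mm10 with STAR 2.4.2a and deposited read counts per gene, without normalization, and RPKM values computed with RefSeq models. Libraries were made from full-length cDNA without molecular identifiers or, so far as stated, strand, so overlapping genes cannot be told apart. The counts gave every result; the deposited RPKM values served as an alternative. Of 24490 entries, those sharing a symbol were summed to 23998 symbols. *Rn45s* took 5.46% of V1 L4 and 4.67% of S1 L4 counts. Groups came from the labels. Shares have exact 95% intervals.

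Named genes are the 5 markers, the type name genes, the 12 largest differences each way with 1 sign in all 5 days, the 5 largest each way among genes read in 90% of cells, list members past the limit or at the extremes, and *Mbp*, *Pvalb*, *Calb1* and *Gabrd*; some genes that this rule names are not reported here. Genes of the lists with 1 sign in every day, *Ifit3*, *Gad1*, *Lhx6*, *Kcnc1*, *Npy*, *Pdyn*, *Crhbp*, the other kainate subunits and the genes at the limit were chosen after their values were seen. Members and lists were chosen with earlier results of these data known. Functions were tested on simulated data. Coordinates are from GENCODE M21. Tools were Python 3.11.15, pandas 2.3.3, SciPy 1.17.1 and, for TMM scaling, edgeR 4.0.16. Alternatives changed the filters, scaling, pseudocount, depth, unit and days.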

Additional observations from a re-analysis of the deposited data

How the results depend on the processing

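The shares of genes past the limit, 0.283% toward S1 and 0.272% toward V1, moved most with the scale and the days. They were 0.0435% and 0.0326% with a pseudocount of 10, 0.0761% and 0.109% with RPKM values, and 1.30% and 1.89% with a limit of 1. With days 1 to 6 alone they were 1.38% and 1.08% and with days 7 to 9 alone 1.35% and 2.38%, and without cells over 500 CPM of oligodendrocyte markers, chosen after seeing the data, 1.18% and 0.891%. Fewer days then had to share a sign. Leaving out 1 day at a time, which also left fewer days to share a sign, gave 0.315 to 0.576% toward S1 and 0.391 to 0.587% toward V1. The counts stayed within 1.5 times when cells without an *Sst* read were kept, with a lower filter on genes, TMM scaling, *Rn45s* left out of the total, or thinning to 250000 reads.

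None of the 26 named genes past the limit changed sign in 416 alternative values, although *Calb2* was at 0 in the difference of medians, and 27 of the values moved by more than the SD over days. Of 94 named genes, 31 moved by more than this SD when medians over cells replaced means, and 9 with a pseudocount of 10. Keeping cells without an *Sst* read moved *Sst* to −1.52. Depth limits the reading of a cell at 0, and few cells a day limit the SD over days.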

Other observations

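Neuropeptide genes differed little between areas beside their spread over days. Of 7 genes in this list past the filter, 5 were higher in S1, beside 50.8% of all genes, with a median difference of 0.54. None had 1 sign in every day, beside 2.73% of all genes with S1 higher and 3.89% with V1 higher. *Npy*, which encodes neuropeptide Y, was at 8.95 in V1 and 9.09 in S1. *Pdyn*, which encodes the opioid precursor prodynorphin, was at 8.09 and 9.06, a difference of 0.97 (SD over days 1.63). *Crhbp*, the binding protein of corticotropin-releasing hormone, was at 8.67 and 9.82, a difference of 1.15 (SD 1.31). *Pnoc*, the nociceptin precursor, had a read in 7 of 42 V1 cells and 15 of 34 S1 cells.

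Transcription factors of interneurons were split evenly, with 7 of 14 higher in S1, beside 50.8% of all genes. *Lhx6*, which specifies interneurons of the medial ganglionic eminence, was at 5.11 and 6.38, with S1 higher in 2 of 5 days. Of 16 immediate early genes, which neurons switch on with activity, 7 were higher in S1, beside 50.8% of all genes, with a median of −0.11. *Dusp1* was higher in S1 on each day, by 0.98 over all cells (SD over days 0.56) but by only 0.03 on day 7. *Fosb* was lower on each day, at 7.85 in V1 and 7.11 in S1, a difference of −0.74 (SD 1.74). Of 10 neuromodulator receptors, 7 were higher in S1, beside 50.8% of all genes. None was past the limit, beside 0.283% of all genes toward S1 and 0.272% toward V1. *Chrm2*, a muscarinic receptor, had a read in 6 V1 and 13 S1 cells.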
